A study of Rattus norvegicus with 6 samples.

Results

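The genes described here are 10 chemokines and cytokines, Cxcl12, Cx3cl1, Ccl2, Ccl7, Ccl20, Cxcl1, Cxcl2, Cxcl3, Il6 and Il33. They were chosen by name, with earlier results of these data known. Every probe set that the platform annotation gives to 1 of these symbols was taken. In all 15 of 15923 probe sets carry such a symbol, and they stand for 9 genes. No probe set carries the symbol Ccl7, so that gene has no value below. The cells were passage 2 mesenchymal stromal cells, adherent fibroblast-like cells grown out of the mononuclear fraction. They came from peripheral blood (3 cultures) and from bone marrow (3 cultures), with 1 culture of each kind from each of the rats S4, S5 and S6. Every rat carried a GFP transgene, and both kinds of culture were grown in the same serum-containing medium. The sources used here do not give the promoter of the transgene or the age of the rats.

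Chemokines are small secreted proteins that guide leukocytes through receptors on the cell surface, and interleukins carry signals between immune and stromal cells. Marrow stromal cells are known for Cxcl12, which holds blood-forming cells in the marrow through its receptor Cxcr4. Many of the other ligands, among them Cxcl1, Cxcl2, Ccl2 and Il6, are known to be switched on in fibroblasts by the NF-kB pathway.

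All 12 listed stromal markers were bright enough to be tested, that is above the median of all values on at least 3 of 6 arrays. Col1a1, a collagen I chain, had a mean log2 signal of 13.01 in blood cultures, against 12.54 in marrow cultures. Not every marker was bright in every culture, as Thy1 was above that median on only 3 arrays. Ptprc, the pan-leukocyte marker CD45, stayed below the level for testing, while 7 other leukocyte genes passed it. All values are log2 signals, a difference is the blood value minus the marrow value on that scale, and errors are SD over 3 cultures for levels and SE from limma for differences. Array medians lay between 8.12 and 8.22, and with 3 arrays a group precision is limited. Where 3 values are given for a kind of culture, or 3 differences, they are those of rats S4, S5 and S6 in that order. The arrays of rats S4 and S5 were run on fluidics station 1 and those of rat S6 on station 2, so rat S6 and its station cannot be told apart. Each difference within a rat lies within 1 station but spans different modules of it. Blood arrays were on modules 1, 3 and 1 and marrow arrays on modules 2, 4 and 2, so module and kind of culture cannot be told apart. Levels of different probe sets are not set against each other, because each probe set has its own brightness.

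The stromal markers differed between the groups in part: of the 12 tested 1 rose, 0 fell and 11 did not pass in limma, with 9 positive and 3 negative differences. The one that rose was Eng, the endoglin gene, which read 10.52, 10.27 and 10.72 in blood cultures, against 8.25, 9.16 and 9.25 in marrow cultures. Its difference was 1.62 ± 0.23 (limma adjusted p = 0.0380), a call lost under 6 of 13 alternatives, among them leaving out rat S4 (1.29, adjusted p = 0.283) or rat S6 (1.69, adjusted p = 0.194). Pdgfra, a growth factor receptor of mesenchymal cells, read 8.91, 10.84 and 9.65 in blood cultures, against 11.90, 11.94 and 11.35 in marrow cultures. All its blood cultures were lower, but the difference of -1.93 ± 0.35 did not pass (limma adjusted p = 0.0681). Without rat S5 it was -2.35 (limma adjusted p = 0.0074), while over 13 alternatives the adjusted p ran up to 0.335. Nt5e, which encodes the surface enzyme CD73, differed by 0.77 ± 0.15 (limma adjusted p = 0.0862). The other negative differences belonged to Pdgfrb at -0.38 ± 0.15 and Thy1 at -1.02 ± 0.83 (limma adjusted p = 0.357 and 0.715), and Thy1 differed by -2.36, 1.74 and -2.43 in single rats. Its levels were 7.02, 9.42 and 7.41 in blood cultures, against 9.38, 7.68 and 9.84 in marrow cultures. Without rat S5 Thy1 differed by -2.40 (limma adjusted p = 0.000848), while over 13 alternatives its adjusted p ran up to 0.976. The part of these marker differences in the results on the ligands was not tested.

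The regions just before the start of the genes are shown because a motif that NF-kB is known to bind recurs there. RefSeq promoter windows on GRCr8, from 250 bases before to 50 after a gene's start, were available for 8 of the 10 genes. Ccl2 and Cxcl3 are named only. The 10 letters searched, on both strands, were GGG, then any 3 bases, then TTCC. They occur in the windows of 5 genes (Ccl7, Ccl20, Cxcl1, Cxcl2 and Il6) and in 5.37% of all 33469 windows. Several of these genes were known targets of NF-kB before the search, and Cxcl1 and Cxcl2 are related genes on the same chromosome. The contrast with all windows thus gives no support. The lines below give bases -110 to -31, counted from -1 just before the start, on the gene's own strand, with matches in capitals. Cx3cl1 and Cxcl12, which have no match in the whole window, are printed beside the 4 measured genes that have one. Il33, also measured, has 2 windows without a match, which are not printed.
Ccl20 (GRCr8 chr9:91837049-91837128, plus strand): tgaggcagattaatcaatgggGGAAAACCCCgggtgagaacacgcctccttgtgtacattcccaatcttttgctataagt
Cxcl1 (GRCr8 chr14:17479352-17479431, minus strand): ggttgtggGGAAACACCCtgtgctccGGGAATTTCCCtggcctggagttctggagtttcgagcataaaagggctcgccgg
Cxcl2 (GRCr8 chr14:17467286-17467365, minus strand): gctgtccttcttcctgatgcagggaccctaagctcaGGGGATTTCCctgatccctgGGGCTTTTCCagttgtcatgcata
Il6 (GRCr8 chr4:5894606-5894685, minus strand): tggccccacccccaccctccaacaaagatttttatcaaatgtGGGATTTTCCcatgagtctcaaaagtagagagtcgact
Cx3cl1 (GRCr8 chr19:10242851-10242930, minus strand): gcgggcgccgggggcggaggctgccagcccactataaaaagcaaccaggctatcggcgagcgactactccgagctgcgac
Cxcl12 (GRCr8 chr4:152060671-152060750, plus strand): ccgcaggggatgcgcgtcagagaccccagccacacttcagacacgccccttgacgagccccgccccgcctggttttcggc
In Cxcl1 the matches start at -102, -84 and -83, and the last 2 overlap on opposite strands. Cxcl2 has matches from -74 and -54, Il6 from -68 and Ccl20 from -89. A match is a description of these letters, and its absence says nothing about the factor. The 4 measured genes with a match did not share a direction: Ccl20 had a mean difference of 1.53, Cxcl1 of 0.06, Cxcl2 of -0.14 and Il6 of -0.26.

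The comparison of blood with marrow cultures asked how stromal cells from the circulation differ from those of the marrow of the same rat. Of the 15 member probe sets 13 were bright enough to be tested, standing for 8 genes, and 0 of them passed an adjusted p of 0.05 in limma with the rat as a term. Over all 8135 tested probe sets 2.15% passed. At an unadjusted p under 0.05 there were 6 of the 13 member probe sets, belonging to Ccl20, Cxcl3 and Il33, against 14.1% of all tested ones. Over the 13 the median difference was -0.26 (4 above 0 and 9 below it), against a median of -0.01 over all tested probe sets. Their median absolute difference was 0.65, against 0.13 over all tested probe sets. The members were chosen with earlier results of these data known, so these contrasts with all tested probe sets give no support. In such bulk samples fewer cells of a type cannot be told apart from less RNA per cell. Probe sets of 1 gene read the same RNA, so these counts are not counts of independent genes. The widest difference belonged to Cx3cl1, which was lower in blood cultures in all 3 rats but too dim for testing. Ccl20 and Il33 had positive differences in all 3 rats, while Cxcl12 and Cxcl3 lay mostly below 0 and Cxcl1, Cxcl2 and Il6 differed in sign between rats.

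**Figure D1:**
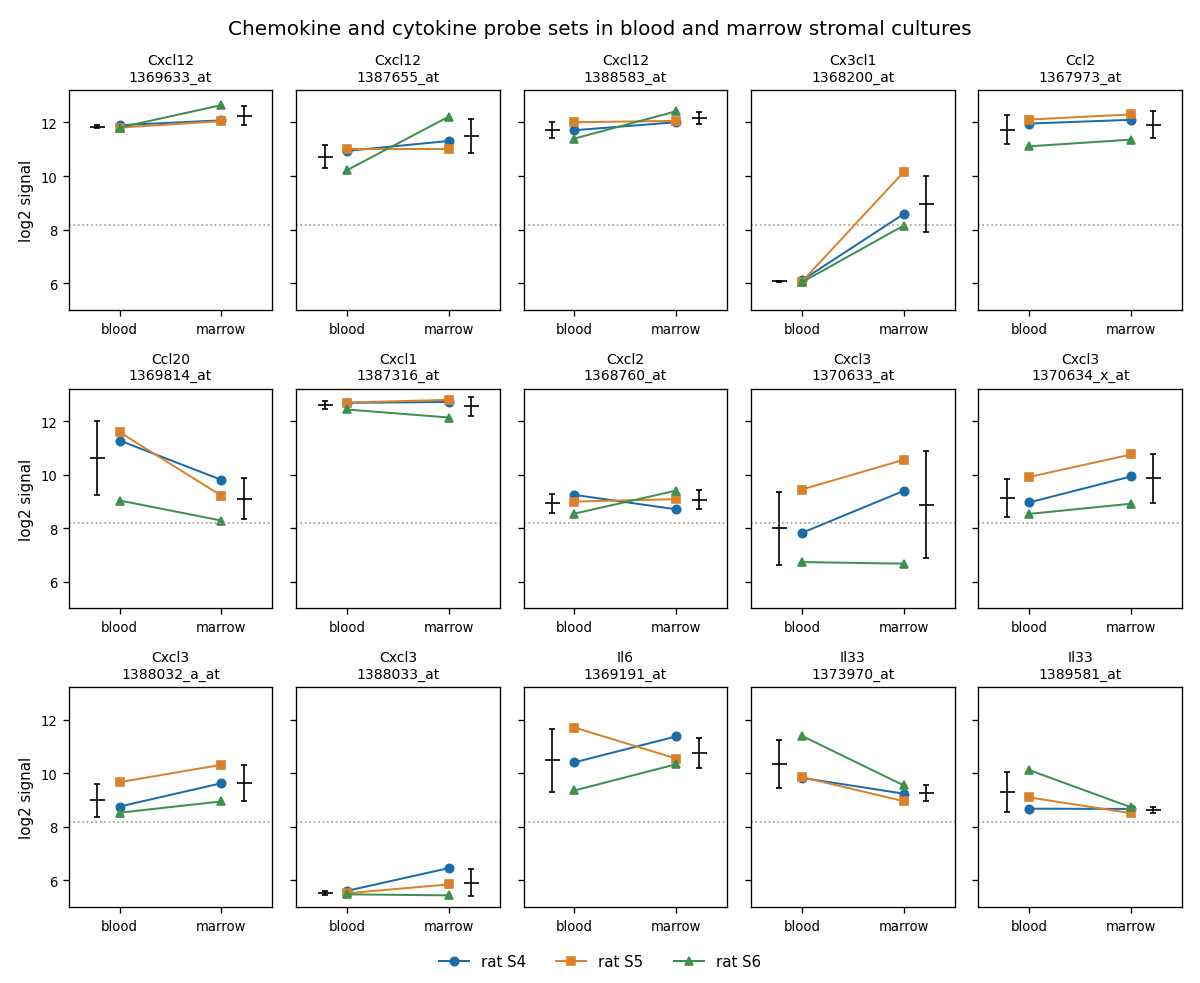
Log2 signal (vertical axis) of the 15 member probe sets, with blood cultures left and marrow cultures right in each panel. Lines join the cultures of 1 rat, black bars show the mean ± SD of 3 cultures, and the dotted line is the median of all values, 8.18. The 3 blood cultures sit close together for Cx3cl1, between 6.03 and 6.10, below all 3 marrow cultures.

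Cx3cl1 encodes fractalkine, a chemokine made as a membrane-anchored adhesion molecule that is shed into a soluble attractant of cells bearing Cx3cr1. Its probe set read 6.10, 6.05 and 6.03 in blood cultures, against 8.58, 10.15 and 8.15 in marrow cultures. Every blood culture was thus lower than every marrow culture, and blood cultures spread far less than marrow cultures. The mean difference was -2.90 ± 0.41, or 7.46-fold lower in blood cultures, and in single rats -2.48, -4.10 and -2.12. The fold is approximate, because all blood values lie below the median of the table, where no background level is known. Only 2 of its 6 values exceeded 8.18, with the marrow value of rat S6 just under it, so Cx3cl1 was not among the tested probe sets. In the limma fit without a filter on signal its adjusted p was 0.0954 (95% interval of the difference -3.96 to -1.84), ranked 155 of 15866 by p, where 0.517% of probe sets passed. With a filter of 2 of 6 arrays, chosen after its values were seen, Cx3cl1 enters only through its marrow arrays, and limma gave an adjusted p of 0.0386. Without rat S5, in the limma fit without a filter, the difference was -2.30 with an adjusted p of 0.0314. Over 12 alternatives the limma adjusted p of Cx3cl1 ran up to 0.550. In all, 3 of the 15 member probe sets did not overlap between groups, against 16.3% of all 15866 probe sets other than controls.

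Among the genes that handle fractalkine, the sheddase gene Adam17 stood at 9.99, 9.82 and 10.05 in blood cultures, against 10.52, 10.51 and 10.34 in marrow cultures. All blood cultures were lower, by -0.50 ± 0.13, but Adam17 did not pass in limma (adjusted p = 0.169). The other sheddase gene, Adam10, had a difference of 0.56 ± 0.29 on its brighter probe set (limma adjusted p = 0.496), with 1.39, -0.16 and 0.45 in single rats. The receptor gene Cx3cr1 was too dim for testing and read 7.94, 8.12 and 7.93 in blood cultures, against 7.94, 8.07 and 7.87 in marrow cultures. Of 10 genes on the array that process or bind the members at the cell surface, 8 were tested, of which 1 rose, 0 fell and 7 did not pass. The gene that rose was Timp3, an inhibitor of matrix metalloproteinases that also blocks Adam17, at 4.14 ± 0.59 (limma adjusted p = 0.0356), a call lost under 6 of 13 alternatives. That probe set was above the median on 3 arrays, all from blood cultures, at 12.05, 9.53 and 11.90, against 7.54, 7.21 and 6.32 in marrow cultures. It thus entered the test only through the group where it is high, so this count gives no support, and the fold is approximate. In the fit without a filter its limma adjusted p was 0.115. Without rat S4 Timp3 differed by 3.95 and without rat S6 by 3.42 (limma adjusted p = 0.485 and 0.123). Another tested Timp3 probe set, likewise above the median only in blood cultures, differed by 4.72 ± 0.57 (limma adjusted p = 0.0205, and 0.0765 without a filter). Those below the level for testing differed by 1.66 and 3.89. Dpp4, the peptidase that inactivates Cxcl12 by trimming it, was too dim for testing on both probe sets, which averaged 6.59 and 6.92 in blood cultures, against 6.46 and 6.89 in marrow cultures.

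Cxcl12 was measured by 3 probe sets, and its signal was high in every culture. The brightest read 11.90, 11.81 and 11.81 in blood cultures, against 12.08, 12.05 and 12.65 in marrow cultures. On this probe set all blood cultures lay below all marrow cultures, as 1 of 2 members among the 13 tested that did not overlap, against 18.4% of all tested probe sets. The difference was -0.42 ± 0.17 with a 95% interval of -0.84 to 0.0032, and it did not pass in limma (adjusted p = 0.358). A second probe set read 10.94, 11.00 and 10.22 in blood cultures, against 11.31, 11.00 and 12.22 in marrow cultures, where the groups meet at the 2 cultures of rat S5. The last read 11.71, 12.01 and 11.40 in blood cultures, against 12.01, 12.06 and 12.42 in marrow cultures, which meet at 12.01. Their differences of -0.79 ± 0.38 and -0.46 ± 0.21 did not pass either (limma adjusted p = 0.459 and 0.422). All 3 probe sets placed the widest difference in rat S6, at -0.84, -2.00 and -1.02, where the differences in rats S4 and S5 ran from -0.37 to 0.

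The receptor of Cxcl12, Cxcr4, was read by 3 tested probe sets, and its brightest stood at 9.41, 9.04 and 9.23 in blood cultures, against 8.01, 8.78 and 9.66 in marrow cultures. The marrow cultures spread on both sides of the blood cultures, and the difference of 0.41 ± 0.34 did not pass (limma adjusted p = 0.719). The atypical receptor Ackr3, which takes up and degrades Cxcl12, stood at 10.72 ± 0.34 in blood cultures, against 10.67 ± 0.65 in marrow cultures (SD, n = 3). In single rats it differed by 0.88, 0.25 and -0.96. In rat S6 all 3 Cxcl12 probe sets, Cxcr4 and Ackr3 were lower in the blood culture, while in rat S4 the receptor genes were higher there. The sign of the mean Ackr3 difference turned with array weights, at -0.20.

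The 5 genes whose pattern over the 6 arrays was most like that of the brightest Cxcl12 probe set were Fam98a, Vps28, Prps2, Pdlim4 and Vezf1, with Pearson's r between 0.98 and 0.99. These values describe 6 arrays that share groups and rats. The closest of them, Fam98a, read 10.06, 9.92 and 9.94 in blood cultures, against 10.33, 10.34 and 10.94 in marrow cultures. By the same measure Il6 was most like Vps36, Cdc42ep5 and Nsf (r from 0.98 to 0.99), Ccl20 most like Rhob, Soat1 and Btg1 (0.97 to 0.98), and Ccl2 most like Arid2, Tubb5 and Wdr73 (0.97 to 0.98).

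Ccl20, the ligand of Ccr6 that draws in lymphocytes and dendritic cells, had the largest positive difference among the members. It read 11.27, 11.58 and 9.03 in blood cultures, against 9.80, 9.21 and 8.28 in marrow cultures. In each rat the blood culture was higher, by 1.47, 2.37 and 0.75, but both cultures of rat S6 were low, so the groups overlap. The difference was 1.53 ± 0.30, or 2.89-fold, with a 95% interval of 0.78 to 2.28, and it did not pass in limma (adjusted p = 0.0882). Without rat S5 the difference was 1.11 and the limma adjusted p 0.0416, in a fit where 5% of all tested probe sets passed. Over 13 alternatives the limma adjusted p of Ccl20 ran up to 0.522. A positive difference in all 3 rats was seen in 15.1% of all tested probe sets.

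Il33, a nuclear cytokine of the interleukin-1 family that is released from damaged stromal and barrier cells, was read by 2 tested probe sets. The brighter read 9.82, 9.85 and 11.39 in blood cultures, against 9.23, 8.95 and 9.54 in marrow cultures. Every blood culture was higher than every marrow culture, as for 7.07% of all tested probe sets, and that of rat S6 stood highest. The difference was 1.11 ± 0.25, or 2.16-fold, with 0.59, 0.90 and 1.85 in single rats, and it did not pass in limma (adjusted p = 0.126). The other probe set read 8.67, 9.09 and 10.11 in blood cultures, against 8.66, 8.50 and 8.72 in marrow cultures, so that rat S4 showed almost no difference. Its difference was 0.66 ± 0.27 (limma adjusted p = 0.353). Il1rl1, which encodes the Il33 receptor ST2, had an empty cell for the marrow culture of rat S4, so its difference of -0.80 ± 0.38 rests on rats S5 and S6 (limma adjusted p = 0.470). Those rats differed by -1.55 and -0.05. Its partner chain Il1rap was too dim for testing and averaged 6.88 ± 0.22 in blood cultures, against 6.34 ± 0.09 in marrow cultures (SD, n = 3).

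**Figure D2:**
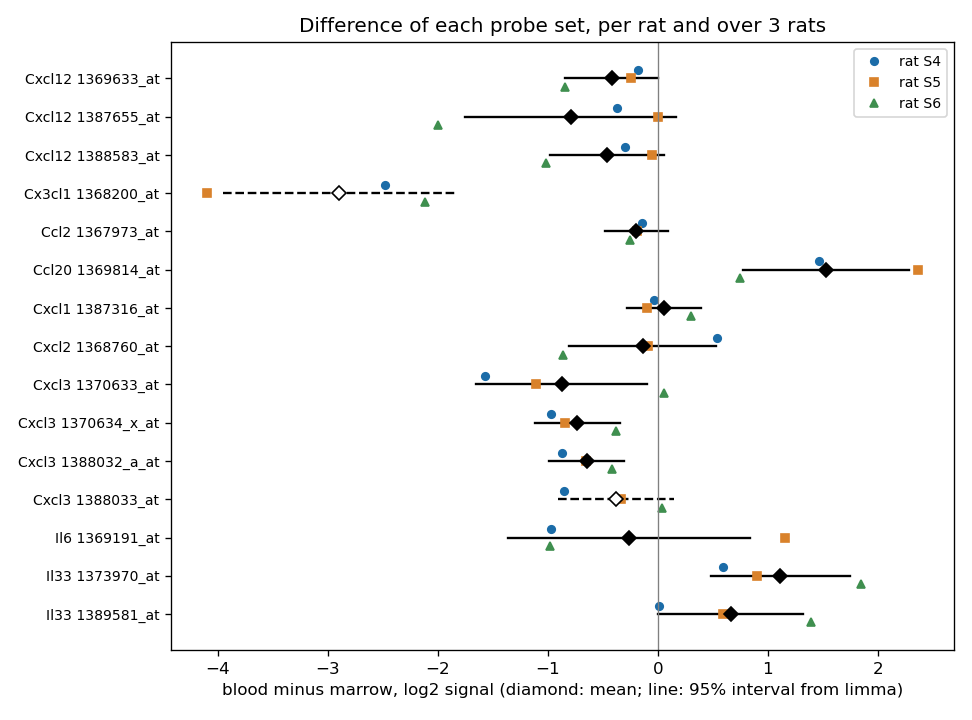
Blood minus marrow log2 difference (horizontal axis) of each member probe set, listed down the page. Coloured points are the 3 rats, diamonds the mean and lines the 95% interval from limma; open diamonds and dashed lines mark the 2 probe sets below the level for testing, from the fit without a filter. Cx3cl1 lies farthest to the left at -2.90 and Ccl20 farthest to the right at 1.53.

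Cxcl1, Cxcl2 and Cxcl3 encode closely related neutrophil attractants that act through Cxcr2, and their differences did not share a direction. Cxcl1 was bright in every culture, where the highest value of the table is 13.31, at 12.68, 12.69 and 12.43 in blood cultures, against 12.71, 12.79 and 12.13 in marrow cultures. Its difference was 0.06 ± 0.14, with a 95% interval of -0.28 to 0.39 (limma adjusted p = 0.928). Cxcl2 read 9.24, 8.99 and 8.54 in blood cultures, against 8.70, 9.08 and 9.40 in marrow cultures. Its differences of 0.54, -0.09 and -0.86 run in both directions, and the mean was -0.14 ± 0.27 (95% interval -0.80 to 0.53, limma adjusted p = 0.910).

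Cxcl3 was read by 4 probe sets, of which 3 were tested, and all 4 had a negative mean difference. The brightest, whose name marks probes that may also bind other sequences, read 8.96, 9.91 and 8.53 in blood cultures, against 9.93, 10.75 and 8.91 in marrow cultures. The blood culture was lower in each rat, as for 19.1% of all tested probe sets, but rats differed more among themselves, with rat S5 highest and rat S6 lowest in both kinds of culture, so the groups overlap. Its difference was -0.73 ± 0.16, with a 95% interval of -1.12 to -0.34, and it did not pass in limma (adjusted p = 0.106). A second probe set read 8.75, 9.66 and 8.52 in blood cultures, against 9.62, 10.31 and 8.94 in marrow cultures, a difference of -0.65 ± 0.14 (limma adjusted p = 0.105). These probe sets ordered the rats alike, with r of 0.99 over the 6 arrays. Another, just inside the level for testing with 3 arrays above the median, read 7.82, 9.44 and 6.73 in blood cultures, against 9.39, 10.55 and 6.67 in marrow cultures (difference -0.87 ± 0.31, limma adjusted p = 0.294). Here rat S6 was dim and flat, at a difference of 0.06. The remaining one was too dim for testing and averaged 5.53 ± 0.07 in blood cultures, against 5.91 ± 0.51 in marrow cultures (SD, n = 3). The receptor gene Cxcr2 was also too dim, at 6.69 in blood cultures, against 6.67 in marrow cultures.

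Ccl2, the monocyte attractant of Ccr2, was high in both kinds of culture, at 11.96, 12.11 and 11.11 in blood cultures, against 12.10, 12.30 and 11.36 in marrow cultures. The blood culture was lower in each rat, by -0.14, -0.19 and -0.25, while both cultures of rat S6 lay well below those of the other rats. The difference of -0.19 ± 0.12 did not pass (95% interval -0.48 to 0.09, limma adjusted p = 0.565). Ccr2 itself was far too dim for testing and averaged 5.51 in blood cultures, against 6.05 in marrow cultures. Rat S6 had the lowest value of its kind of culture, in both kinds, on the probe sets of Ccl2, Ccl20, Cx3cl1, Cxcl1, Il6 and all 4 of Cxcl3. On those of Cxcl12 and Il33 a culture of rat S6 had the highest value.

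Il6, an interleukin with wide effects on inflammation and blood cell formation, read 10.40, 11.70 and 9.35 in blood cultures, against 11.37, 10.54 and 10.33 in marrow cultures. Its direction depended on the rat, with -0.97 and -0.98 in rats S4 and S6 and 1.16 in rat S5. The mean of -0.26 ± 0.44 did not pass (95% interval -1.36 to 0.84, limma adjusted p = 0.890). Without rat S5 the difference was -0.98 and the limma adjusted p 0.0263, while without rat S4 or S6 the difference was 0.09 and 0.10. Over 13 alternatives the limma adjusted p of Il6 ran up to 0.986. Socs3, a feedback inhibitor that Il6-type cytokines switch on, had differences of -1.67, 0.34 and -2.26. Its sign thus followed that of Il6 in each rat. This was not particular to Socs3, because Thy1, Junb, Zfp36, Jak2 and Atf3 had the same signs in each rat. A link between Il6 and Socs3 was not tested. The mean Socs3 difference of -1.20 ± 0.48 did not pass (limma adjusted p = 0.359), and without rat S5 it was -1.97 with an adjusted p of 0.0034. Over 13 alternatives the limma adjusted p of Socs3 ran up to 0.865.

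Of 13 receptor genes of the members on the array 4 were tested, and 0 passed in limma (1 at an unadjusted p under 0.05). The receptor side of Il6 was more even between rats than Il6 itself. Il6st, the signalling chain gp130 shared by the receptors of this family, was read by 3 tested probe sets, and on all of them every blood culture was lower than every marrow culture. The brightest read 11.50, 11.70 and 11.20 in blood cultures, against 12.22, 12.34 and 11.92 in marrow cultures. Its differences were -0.72, -0.64 and -0.72, the mean was -0.69 ± 0.11, and it did not pass in limma (adjusted p = 0.0528). The other probe sets had differences of -0.45 ± 0.12 and -0.56 ± 0.17 (limma adjusted p = 0.181 and 0.225). Among all tested probe sets 11.3% had blood cultures that did not overlap with marrow cultures from below. With a variance trend and robust estimation the brightest Il6st probe set had a limma adjusted p of 0.0122, and with array weights 0.0418. It was 0.0698 after scaling, 0.0662 after quantile normalization, 0.141 without a filter and 0.137 without the replicate block. Over all 13 alternatives it ran from 0.0122 to 0.357.

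Il6r, the ligand-binding chain, was below the level for testing and is named after its values were seen. It read 6.21, 6.42 and 6.32 in blood cultures, against 7.03, 7.20 and 6.95 in marrow cultures, with -0.82, -0.78 and -0.63 in the rats. In the limma fit without a filter its difference of -0.74 ± 0.13 had an adjusted p of 0.134. Stat3, the transcription factor downstream of gp130, read 10.55, 10.41 and 10.34 in blood cultures, against 10.84, 10.81 and 10.74 in marrow cultures on its brightest probe set. The difference was -0.36 ± 0.12 (limma adjusted p = 0.243), and on its other probe set -0.65 ± 0.16 (adjusted p = 0.139), again with no overlap between the groups. Cebpb, a transcription factor of Il6 and of the acute phase, had a difference of -0.51 ± 0.17 (limma adjusted p = 0.253). Of 14 genes of Il6-type signalling on the array 11 were tested, of which 0 passed in limma (2 at an unadjusted p under 0.05), 3 had a positive and 8 a negative difference, with a median of -0.12 against -0.01 over all tested probe sets.

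**Figure D3:**
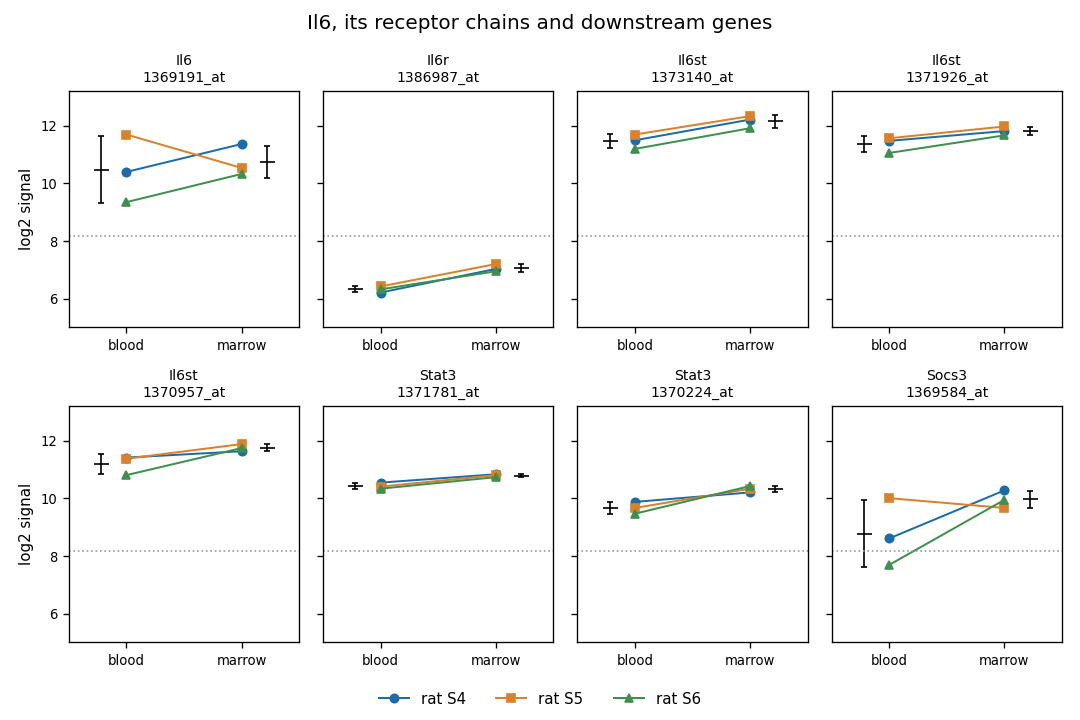
Log2 signal (vertical axis) of Il6, its receptor chains Il6r and Il6st, the transcription factor Stat3 and the feedback inhibitor Socs3, with blood cultures left and marrow cultures right. Lines join cultures of 1 rat, black bars are the mean ± SD of 3 cultures and the dotted line is the median of all values; the lines of Il6 and Socs3 cross in rat S5, while Il6st, Il6r and Stat3 are lower in the blood culture of every rat.

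Of the other chemokine genes 18 were on the array and 6 were tested, of which 0 rose, 1 fell and 5 did not pass. The tested genes had 4 positive and 2 negative differences, with a median of 0.145. The gene that fell was Cxcl13, a B cell attractant, which read 6.31, 8.73 and 5.74 in blood cultures, against 9.46, 10.23 and 9.46 in marrow cultures. Every blood culture was lower, with a difference of -2.79 ± 0.41 (limma adjusted p = 0.0395), although the blood cultures of rats S4 and S6 lay below the median of the table, which leaves the fold approximate. Cxcl13 was above the median on 4 arrays, those of the 3 marrow cultures and the blood culture of rat S5. The group where it is high was thus enough for it to enter the test. The call of Cxcl13 was lost under 9 of 13 alternatives, including the fits without the replicate block by rat and without a filter (limma adjusted p = 0.165 and 0.118). Without rat S4 its difference was -2.61 and without rat S6 -2.33 (limma adjusted p = 0.490 and 0.174). Cxcl6, a further neutrophil attractant named after its values were seen, had differences of -4.83, -0.96 and -1.34 and missed the threshold (limma adjusted p = 0.238). Ccl6, named likewise, had differences of 0.24, 2.34 and 7.89, the widest resting on a marrow value of 0.95 in rat S6. Its mean of 3.49 ± 1.37 also missed the threshold (limma adjusted p = 0.344). Among the other cytokine genes 9 of 28 on the array were tested and 0 passed in limma (1 at an unadjusted p under 0.05). Those with the smallest p were Mif, a macrophage cytokine, at -0.60 ± 0.15, Il7, a lymphocyte growth factor, at -0.39 ± 0.20, and Csf1, the macrophage growth factor, at -0.30 ± 0.17 (limma adjusted p = 0.147, 0.481 and 0.535).

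In the NF-kB list 16 of 21 genes on the array were tested and 0 passed in limma (4 at an unadjusted p under 0.05), with 4 positive and 12 negative differences and a median of -0.08. Sod2, a mitochondrial enzyme gene that NF-kB switches on, differed by -0.53 ± 0.16, the adaptor gene Myd88 by -0.41 ± 0.15 and the NF-kB subunit gene Nfkb2 by -0.43 ± 0.16 (limma adjusted p = 0.231, 0.301 and 0.305). Nfkbia, the inhibitor that NF-kB switches on in feedback, stood at 11.74 ± 0.29 in blood cultures, against 11.41 ± 0.73 in marrow cultures (SD, n = 3). Its difference of 0.33 ± 0.19 came mostly from rat S6, at 0.85 (limma adjusted p = 0.564). Of 13 genes of mRNA decay and inflammatory restraint on the array 12 were tested and 0 passed in limma (3 at an unadjusted p under 0.05), with 1 positive and 11 negative differences and a median of -0.23. The positive one was Tsc22d3, a target of glucocorticoids, at 0.60 ± 0.20 (limma adjusted p = 0.270). The kinase gene Mapk14 differed by -0.40 ± 0.14 and Zfp36l2, which binds AU-rich messages, by -0.30 ± 0.12 (limma adjusted p = 0.265 and 0.338). Over all tested probe sets 14.1% had an unadjusted limma p under 0.05, 48.5% had a positive difference and the median was -0.01. The gene lists were chosen with earlier results of these data known, so their counts give no support.

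Leukocytes are known to make several of these ligands too. Of 12 pan-leukocyte genes 11 were on the array and 7 were tested, of which 0 passed in limma (1 at an unadjusted p under 0.05). The tested ones had 7 positive and 0 negative differences, with a median of 0.40. Their summed signal over 12 probe sets was 7553 to 8877 in blood cultures, against 4862 to 8149 in marrow cultures, and no value was listed at 0. For 12 macrophage genes on the array the sum over 13 probe sets was 11465 to 14838 in blood cultures, against 7518 to 14736 in marrow cultures, again with no value at 0, and of 7 tested genes 0 passed in limma (1 unadjusted). The lowest sums of both lists lay in the marrow culture of rat S4. The leukocyte genes with the smallest p were Laptm5 at 0.67 ± 0.26, Lcp1 at 0.44 ± 0.22 and Tyrobp at 0.40 ± 0.20 (limma adjusted p = 0.329, 0.469 and 0.477). Laptm5 differed by 1.38, 0.57 and 0.06 in single rats. The macrophage genes with the smallest p were Pf4 at 0.49 ± 0.18, Ctss at 0.51 ± 0.27 and Cd68 at 0.47 ± 0.29 (limma adjusted p = 0.316, 0.499 and 0.587). Of the 7 tested macrophage genes 5 had a positive and 2 a negative difference, with a median of 0.33. The part of these cells in the differences of the ligands was not tested. The endothelial list summed to 1407 to 1608 in blood cultures, against 1186 to 1549 in marrow cultures over 8 probe sets. The lymphocyte list summed to 1561 to 1801 in blood cultures, against 1567 to 1855 in marrow cultures over 10 probe sets. None of the 1 endothelial and 2 lymphocyte genes tested passed in limma (0 unadjusted).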

How the data were processed

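Total RNA of 6 stromal cell cultures was hybridised to 1 Affymetrix RAE230A array each, per the labels and the file headers. The deposited table holds log2 signals per probe set. The log base was read from the values, which run from 0 to 13.31. Per the submitters' processing notes the authors used GCOS, the array maker's software, while the sources used here give no probe summary, background correction or normalization.

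The deposited values were neither rescaled nor offset (pseudocount 0). Over all probe sets 86 cells were empty and stayed empty, and no member probe set had an empty cell. No detection calls were used. After removal of 57 control probe sets, 8135 of 15923 probe sets were above the median of all values (8.18) on at least 3 of 6 arrays and were tested. Members below that level were taken from a fit without the filter. Genes were named from the platform annotation, by probe sets with 1 symbol only. The two-sided test of blood against marrow used limma 3.58.1 (lmFit, then eBayes; R 4.3.3) with a fixed term for the rat and Benjamini-Hochberg adjustment over all tested probe sets at 0.05. The pairing comes from the series' design text, by animal. As a check, deviations from the group means were correlated between the arrays of a rat (r = -0.29 in rat S4, 0.30 in rat S5 and 0.33 in rat S6). Arrays of different rats gave -0.47 to 0.42, so the check did not set the arrays of a rat apart. The fit was tested on simulated data.

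The members and gene lists were chosen with earlier results of these data known. Every member probe set is named. Of the other gene lists and the leukocyte, macrophage and stromal markers, genes past the threshold are named, otherwise the 3 with the smallest p by the brightest tested probe set. Always named are Cxcr4, Ackr3, Il6st, Dpp4, Adam10, Adam17, Nfkbia and Stat3. Col1a1, Pdgfra, Nt5e, Pdgfrb and Thy1 were added after their values were seen, as were Cxcl6, Ccl6, Il6r, Junb, Zfp36, Jak2 and Atf3. Cx3cr1, Cxcr2, Ccr2, Il1rap and Ptprc, all below the level for testing, are named outside this rule. Other receptor genes below that level, such as Cxcr1, Ccr1 and Ccr3, are not described. For likeness, the 5 genes closest to Cxcl12 and the 3 closest to Il6, Ccl20 and Ccl2 by Pearson's r were taken. Alternatives covered scaling, quantile normalization, the filter, the pseudocount, the rat term, the variance model, array weights and leaving out each rat, and a filter of 2 of 6 arrays was added after seeing the data. Promoter sequences are those of RefSeq on GRCr8. Motifs were counted in Python 3.11.15 with pandas 2.3.3, and figures drawn in matplotlib 3.10.9 with numpy 2.4.6.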

Additional observations from a re-analysis of the deposited data

How the results depend on the processing

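Against 175 probe sets called in all, limma called 104 after scaling arrays to a common trimmed mean, 107 after quantile normalization and 82 without a filter on signal, while leaving out 1 rat gave 0 to 406 (0 without rat S4, where 769 had an unadjusted p under 0.05, 406 without rat S5 and 44 without rat S6). Of 104, 107 and 82 calls, 103, 106 and 60 were among the 175. The fit with no replicate block called 130 probe sets in all and 0 members. Of the 13 member probe sets that passed the filter, those called ranged from 0 to 2 when 1 rat was left out (2 without rat S5, namely Ccl20 and Il6, beside Cx3cl1 in the fit without a filter), and 1, Cx3cl1, was called with the filter of 2 of 6 arrays, which was added after seeing the data. All other alternatives called 0 members; by unadjusted p under 0.05, 3 to 7 member probe sets passed under them. Of 192 member values under alternatives, 184 kept their sign and their side of the threshold. The cause of the changes was not tested. Signs turned for Il6 (-0.98 to 0.10 on leaving out a rat), Cxcl1 (-0.065 to 0.14), Cxcl2 (-0.48 to 0.23), Cxcr4 (-0.085 to 0.83) and Ackr3 (-0.36 to 0.57, and -0.20 with array weights). The limma adjusted p over these alternatives ran from 0.0314 to 0.550 for Cx3cl1 and from 0.0416 to 0.522 for Ccl20. With 2 rats the fit has 1 residual degree of freedom. Levels under the median of the table have no known background, which limits Cx3cl1 in blood cultures.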
